A study of Mus musculus with 20 samples.

Results

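The tubule injury genes described here are Lcn2, Havcr1, Krt20, Sox9, Spp1, Clu and Vcam1, 7 of the 54532 genes in a table of read counts from mouse kidney tissue. They were taken by gene name as known markers of damaged kidney tubules. All 7 were among the 15354 genes that passed the filter on low counts.

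RNA was sequenced from 10 tumors and 10 pieces of normal kidney in what is called the Cre-less AAV model, with 1 library per piece. The mice were LSL-Cas9/+; Pax8 Cre animals on the C57BL/6 background, males and females injected at 8 to 12 weeks of age. An adeno-associated virus (AAV) placed in the kidney carried sgRNAs against Vhl, Pbrm1, Keap1 and Tsc1, and Cas9 was made in cells with a history of Pax8 promoter activity. The 10 tumors came from separate mice. The normal tissue was taken from kidney regions of those mice, so it shared their alleles, and it came from animals that had received the virus and bore tumors. The count table has no kidneys of untreated mice. No label gives the injury state of any normal kidney, so no reported test divides the normal kidneys. Each is described by its own value against the range of the tumors, and those that stand apart are named by number. The total count was between 14737516 and 26679704 in normal kidneys and between 18447394 and 24902973 in tumors.

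Tubule epithelial cells that are damaged by ischemia, toxins or obstruction lose parts of their transport program and switch on a set of genes that are scarce in healthy tubules. Havcr1 encodes KIM-1, a membrane receptor with which injured proximal tubule cells take up dead cells, and Lcn2 encodes NGAL, a secreted protein that binds iron-laden siderophores and rises in the distal nephron, and also comes from neutrophils. Both proteins are measured in urine as signs of acute kidney injury. Krt20 is a keratin of epithelial intermediate filaments, Sox9 is a transcription factor of regenerating tubule cells, Spp1 encodes the secreted ligand osteopontin, Clu encodes the extracellular chaperone clusterin, and Vcam1 encodes an adhesion molecule that binds integrins on leukocytes and marks proximal tubule cells that have not completed repair.

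The 7 genes did not move as one block. Clu and Lcn2 were lower in tumors than in normal kidneys, and Vcam1 was higher. Havcr1, Krt20, Sox9 and Spp1 were higher in the tumors than in 7 of the 10 normal kidneys, but the normal kidneys numbered 5, 7 and 8 reached or passed the tumors' level. These 4 genes did not pass edgeR's test between the groups over all 20 libraries without a block. With a block by library number, edgeR's test called Havcr1, Krt20 and Sox9, though a number is not stated to mark a mouse. Some fits by another tool called them too.

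Promoter sequences were available for 4 of the 7 genes from a RefSeq table of build GRCm38.p6, which shares its coordinates with the mm10 build of the counts. Those of Krt20, Havcr1 and Spp1 are printed because each of these genes was lower in 7 of the 10 normal kidneys than in every tumor. Each printed window holds the 250 bases before an annotated start, written 5′ to 3′ on the gene's strand. The Krt20 window is chr11:99438154-99438403 on the minus strand, upstream of the first exon. Havcr1 has 3 annotated starts. The window shown is chr11:46750918-46751167 on the plus strand, before the most downstream start and inside an intron of the longer transcripts. The Spp1 window is chr5:104434861-104435110 on the plus strand, upstream of the first exon. Capitals mark matches to a searched motif.
Krt20: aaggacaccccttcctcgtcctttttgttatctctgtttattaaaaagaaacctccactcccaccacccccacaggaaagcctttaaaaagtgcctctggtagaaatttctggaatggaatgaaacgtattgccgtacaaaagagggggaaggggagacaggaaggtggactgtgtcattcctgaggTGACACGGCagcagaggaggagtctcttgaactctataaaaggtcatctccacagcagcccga
Havcr1: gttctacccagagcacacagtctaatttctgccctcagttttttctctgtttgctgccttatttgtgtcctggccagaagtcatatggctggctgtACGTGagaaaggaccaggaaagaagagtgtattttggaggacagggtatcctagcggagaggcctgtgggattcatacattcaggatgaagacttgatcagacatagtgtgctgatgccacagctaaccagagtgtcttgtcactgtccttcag
Spp1: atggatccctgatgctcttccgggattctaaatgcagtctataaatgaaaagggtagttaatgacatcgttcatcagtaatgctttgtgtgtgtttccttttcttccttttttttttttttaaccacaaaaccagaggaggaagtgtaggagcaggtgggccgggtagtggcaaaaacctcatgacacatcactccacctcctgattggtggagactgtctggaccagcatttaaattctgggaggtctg
The motifs searched on both strands were ACGTG (core of the hypoxia response element), TGACNNNGC (core of the antioxidant response element), TGANTCA (AP-1), a site of NF-kB and GTCACGTG (the MiT/TFE family), of which the last contains the first. Windows were shortened where they ran into annotated untranslated exons. The Krt20 window held TGACNNNGC once, at bases 63 to 55 before the start, as did 10.2% of 32851 windows of that length. Of the 3 Havcr1 windows, 2 held ACGTG once each, which 16.6% of all windows did. In the window shown the match lay at bases 154 to 150 before the start. No match was found in the 2 Spp1 windows or in the single Lcn2 window. The shares of all windows with the remaining motifs were 6.75% for TGANTCA, 0.356% for the NF-kB site and 1.85% for GTCACGTG. A match here describes letters only. Sox9, Clu and Vcam1 are named without a sequence.

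Clu (ENSMUSG00000022037, chr14:65968483-65981547, mm10) was abundant in every normal kidney. In CPM, counts relative to the TMM-normalized library size, the normal kidneys held 305 at the lowest, 427 at the median and 4824 at the highest, and the tumors held 10.2, 46.7 and 239. Every tumor lay below every normal kidney. Without TMM factors 1 tumor and 1 kidney crossed, since tumor 7 then had 264 CPM and normal kidney 9 had 228. The log2 fold change of tumors over normal kidneys was -3.84 (SE 0.682), a 14.3-fold lower mean, with an adjusted p of 8.97e-05 by the quasi-likelihood test of edgeR after Benjamini-Hochberg adjustment. Groups that separate completely in this direction were found for 4.74% of all genes tested. RNA of a whole tissue piece does not tell fewer cells of a type from less RNA per cell.

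Lcn2 (ENSMUSG00000026822, chr2:32384633-32388252) had the widest range of the 7 genes within the tumors. Its lowest, median and highest CPM were 9.74, 42.3 and 3296 in normal kidneys and 0.473, 3.00 and 164 in tumors. Normal kidneys 5, 7 and 8 stood far above the others with 2533, 3296 and 1761 CPM, and kidney 9 followed with 232. The other 6 kidneys lay between 9.74 and 50.2 CPM, within the range of the tumors. Of the tumors, 6 lay below every kidney and 4, numbered 5, 7, 8 and 9, lay within the kidneys' range at 18.4, 164, 38.0 and 17.4 CPM. Lcn2 was called lower in tumors, with a log2 fold change of -5.00 (SE 1.37) and an adjusted p of 0.00491 by edgeR's quasi-likelihood test. Without tumor 7 the log2 fold change was -6.42, without kidney 5 it was -4.61 and without kidney 7 it was -4.39, called each time. The medians differed 14.1-fold.

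Vcam1 (ENSMUSG00000027962, chr3:116109949-116129688) differed least between libraries of a group. The normal kidneys held 12.7 at the lowest, 26.2 at the median and 35.3 CPM at the highest, and the tumors 69.3, 99.4 and 137. Every tumor lay above every normal kidney, which 5.89% of all genes tested did. The log2 fold change was 1.93 (SE 0.166), a 3.82-fold higher mean, with an adjusted p of 5.48e-09 by edgeR's quasi-likelihood test. Kidneys 5, 7 and 8, which held the most Lcn2, had 21.4, 34.4 and 26.2 CPM of Vcam1, inside the range of the other 7 kidneys. An antisense gene that overlaps Vcam1, Gm43109, had at most 3 counts in any library.

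In all, 1 of the 7 genes was called higher in tumors, where 23.6% of all genes tested were, and 2 of 7 were called lower, where 23.8% were. Called in either direction were 3 of 7, against 47.5% of all genes. At the limits used by the authors, a log2 fold change beyond 1 with p under 0.001, Vcam1 was higher (8.85% of all genes) and Clu lower (10.2%), while Lcn2 missed the limit on p. Counts this small do not set the 7 genes apart from the background. Over all genes, 3631 were called higher and 3661 lower. With upper-quartile factors the split was 3000 and 4650, and with library totals alone it was 2850 and 4554. Over all genes the median log2 fold change was -0.0211 with TMM, -0.137 with upper-quartile factors and -0.141 with library totals. Calls and directions of the 7 genes stayed as they were under both.

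**Figure D1:**
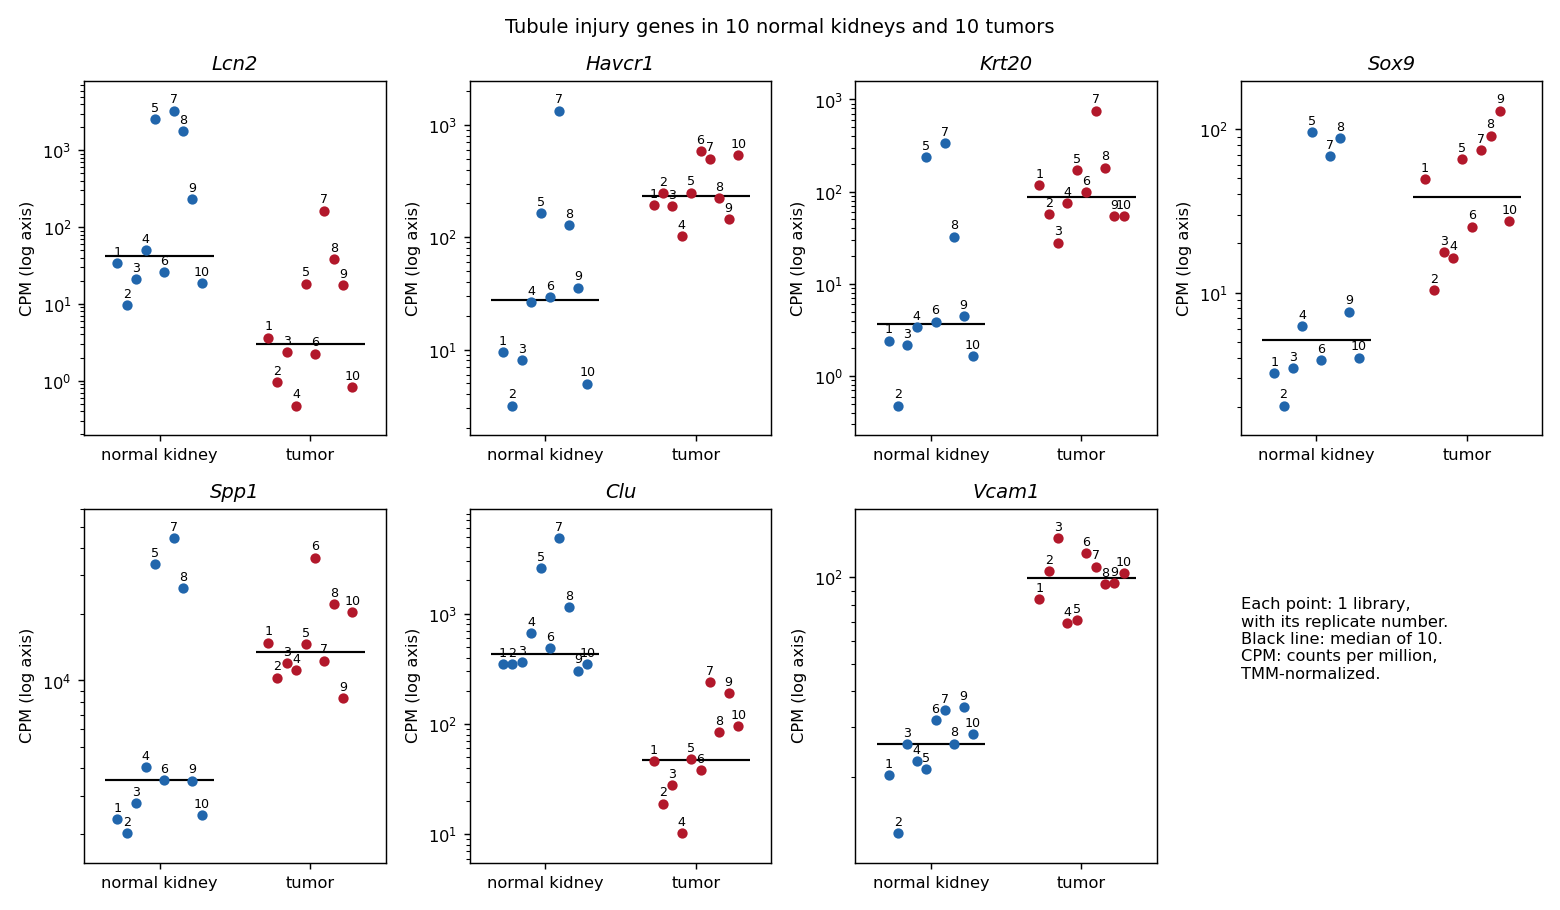
CPM of the 7 genes in each library on log axes, with normal kidneys in blue and tumors in red, the replicate number above each point and the median of 10 as a black line. The libraries of normal kidneys 5, 7 and 8 stand above the other kidneys for Lcn2, Havcr1, Krt20, Sox9, Spp1 and Clu, while Vcam1 separates the groups without such a gap.

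Havcr1 (ENSMUSG00000040405, chr11:46735080-46779578) ranged over 424-fold between normal kidneys and 5.72-fold between tumors. The lowest, median and highest CPM were 3.17, 27.9 and 1344 in kidneys and 102, 235 and 585 in tumors. The 7 kidneys numbered 1, 2, 3, 4, 6, 9 and 10 had at most 35.6 CPM and lay below every tumor. Kidneys 5 and 8, with 163 and 128 CPM, lay within the tumors' range, and kidney 7 lay above it. The median tumor was 8.41-fold above the median kidney, but the means of 297 ± 175 and 175 ± 414 CPM (SD, n = 10 each) differed 1.70-fold, and the adjusted p was 0.49 by edgeR's quasi-likelihood test. Leaving out kidney 7 raised the log2 fold change from 0.76 to 2.71 and turned the result into a call, with an adjusted p of 0.00191 by the same edgeR test.

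Krt20 (ENSMUSG00000035775, chr11:99428403-99438150) was scarce in 7 of the normal kidneys. Those 7 kidneys had between 0.478 and 4.51 CPM, below the lowest tumor at 28.1. The median of all 10 kidneys was 3.65. The remaining kidneys 5, 7 and 8 had 236, 334 and 32.6 CPM, all within the tumors' range, whose median was 87.4 and whose top was 758 in tumor 7. The medians differed 23.9-fold, the most of the 7 genes, and the log2 fold change was 1.36 (SE 1.01) with an adjusted p of 0.279 by edgeR's quasi-likelihood test. It was 0.58 without tumor 7 and 2.33 without kidney 7, not called either way. With a block by replicate number it was 3.73 and called, as were Havcr1 (3.03) and Sox9 (1.91). Each of these genes was higher in the tumor in 9 of 10 same-numbered pairs. A number is not stated to mark a mouse.

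Sox9 (ENSMUSG00000000567, chr11:112782224-112787760) had its lowest, median and highest CPM at 2.03, 5.11 and 96.3 in kidneys and at 10.4, 38.6 and 130 in tumors. The same 7 kidneys lay below every tumor, at 7.65 CPM or less. By contrast, kidneys 5, 7 and 8 had 96.3, 68.4 and 88.1 CPM, each above the tumors' median. The log2 fold change was 0.84 (SE 0.726), with an adjusted p of 0.356 by edgeR's quasi-likelihood test. It was 0.57 without tumor 9 and 1.29 without kidney 5, again not called.

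Spp1 (ENSMUSG00000029304, chr5:104435118-104441050) was the most abundant of the 7 genes. Kidneys held 2020 CPM at the lowest, 3513 at the median and 44250 at the highest, and tumors held 8302, 13490 and 36100. Again 7 kidneys lay below every tumor, at 4044 CPM or less. The values of kidneys 5, 7 and 8 were 33800, 44250 and 26180 CPM, so that 1 kidney passed the highest tumor. Spp1 took up 4.55% of all counts in kidney 7 (95% Wilson interval 4.54 to 4.56, counting error only) and 3.61% in kidney 5, and was the most abundant gene per length in both. The log2 fold change was 0.38 (SE 0.581), with an adjusted p of 0.617 by edgeR's quasi-likelihood test. It was 0.16 without tumor 6 and 0.86 without kidney 7, also not called. A gene that overlaps Spp1 on the same strand, Gm42793, had at most 1088 counts in a library, and reads shared by the pair cannot be assigned.

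**Figure D2:**
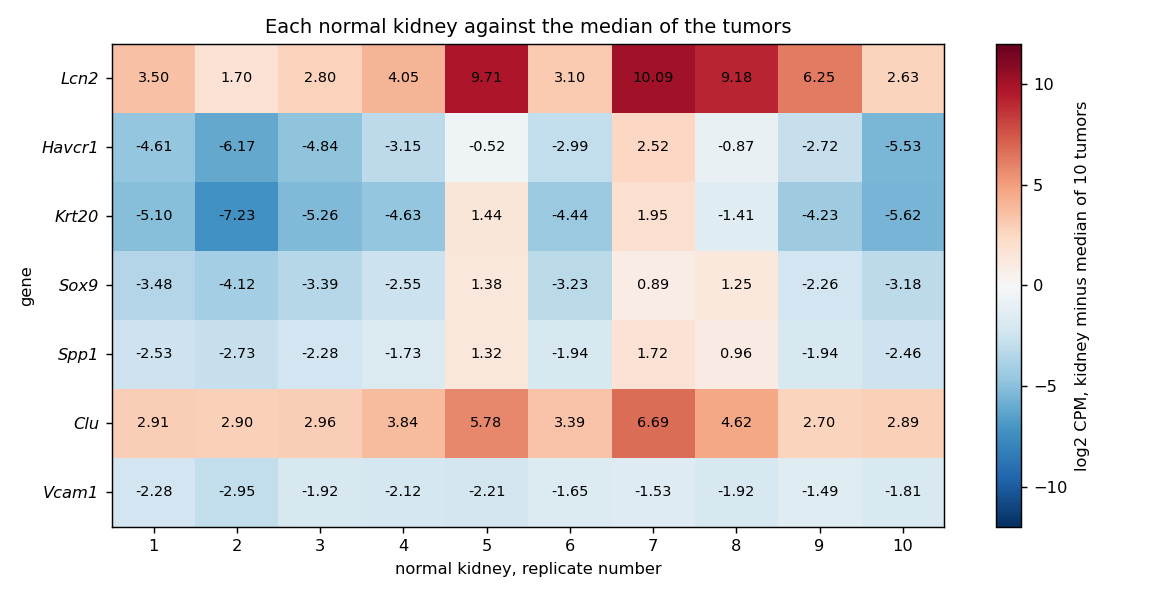
Difference in log2 CPM between each normal kidney (columns) and the median of the 10 tumors (rows are genes), with red above and blue below the tumors. Spp1 runs from -2.73 in kidney 2 to 1.72 in kidney 7, Clu is positive and Vcam1 negative in all 10 kidneys.

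The plot of each kidney against the tumors' median shows 3 patterns. Clu and Lcn2 were above the tumors' median in all 10 kidneys, by 2.70 to 6.69 and by 1.70 to 10.09 on the log2 scale. Vcam1 was below it in all 10, from -1.49 to -2.95. For Sox9 and Spp1 the sign differed between kidneys, with positive values in kidneys 5, 7 and 8. Krt20 was positive in kidneys 5 and 7, and Havcr1 in kidney 7.

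The outcome for these 4 genes differed between fits, and the cause was not tested. The fold changes of edgeR and DESeq2 were close to the ratio of the mean CPM. The mean log2 CPM of Havcr1 was 8.00 ± 0.84 in tumors and 4.99 ± 2.66 in kidneys (SD, n = 10 each), a wider gap than the fold change of the means. By limma-voom, which works on log2 values, the adjusted p was 0.0067 for Havcr1, 0.00387 for Krt20, 0.0394 for Sox9 and 0.0559 for Spp1, at log2 fold changes of 2.98, 3.50, 1.80 and 1.33. That made 4 of 7 genes higher in tumors, where limma-voom called 24.1% of all genes higher. With quality weights, which give libraries far from the rest less weight, all 4 were called, 5 of 7 genes were higher, and so were 34.8% of all genes. Over the alternatives that test against no change, by edgeR, DESeq2 or limma-voom, the adjusted p ranged from 1.84e-07 to 0.666 for Havcr1, 2.36e-07 to 0.737 for Krt20, 8.54e-05 to 0.554 for Sox9 and 3.87e-06 to 0.845 for Spp1. Clu, Lcn2 and Vcam1 were called in the same direction by every one of these fits.

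**Figure D3:**
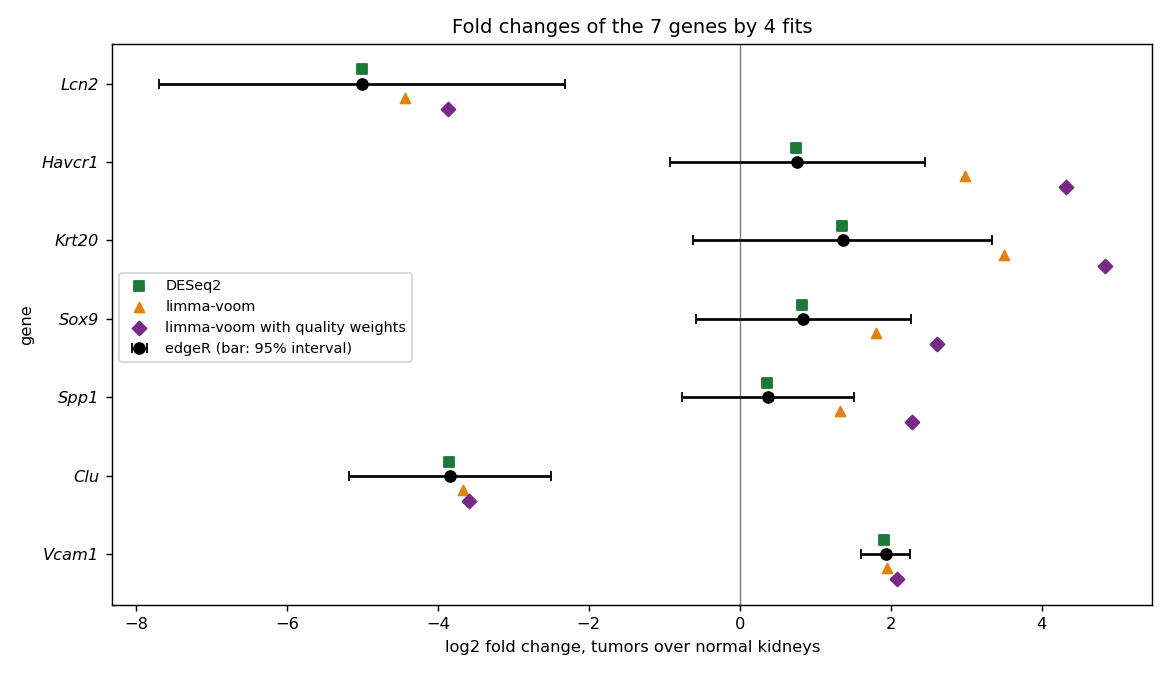
Log2 fold change of tumors over normal kidneys for the 7 genes by edgeR (black, bar for the 95% interval), DESeq2 (green), limma-voom (orange) and limma-voom with quality weights (purple). For Havcr1 the 4 values are 0.76, 0.75, 2.98 and 4.32, while for Vcam1 they lie between 1.91 and 2.08.

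The spread between libraries set these genes apart from most others. The SD of log2 CPM over the 10 kidneys was 3.24 for Lcn2, 3.08 for Krt20, 2.66 for Havcr1, 2.16 for Sox9, 1.76 for Spp1 and 1.39 for Clu. The median SD was 0.471 over the 14365 tested genes with a mean of at least 1 CPM, and between 97.0% and 99.9% of those genes varied less than each of these 6. Vcam1, with an SD of 0.44, varied less than most genes, and 44.3% of genes lay below it. Among tumors the SD of Lcn2 was 2.66, again above 99.9% of genes, and that of Spp1 was 0.63, above 74.4%.

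The order of the levels per length of transcript differed between the groups. By median CPM per kilobase, the kidneys ranked Spp1 (2132), Clu (124), Lcn2 (16.1), Havcr1 (12.1), Vcam1 (2.95), Krt20 (1.90) and Sox9 (1.24). The tumors ranked Spp1 (8186), Havcr1 (102), Krt20 (45.3), Clu (13.6), Vcam1 (11.2), Sox9 (9.32) and Lcn2 (1.14). Havcr1 and Krt20 thus stood right after Spp1 in tumors, and Lcn2 stood last. The ranges of neighbors in each order overlapped, except that every tumor held more Spp1 than any tumor held Havcr1.

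Correlations between the 7 genes are given within tumors only. The 10 kidneys fall into separate clusters, with a gap of 2.92 in log2 CPM of Lcn2 below kidneys 5, 7 and 8, so no r over kidneys is given. Within the 10 tumors, 17 of 21 pairs of genes had a positive Pearson r. None of the 21 reached an adjusted p under 0.05 by the two-sided permutation test on r, with adjustment over the 21 pairs, although 5 had an unadjusted p under 0.05. The test on Spearman's rho called 1 pair. Sox9 and Clu had r = 0.81 and rho = 0.87 over the 10 tumors (permutation p = 0.00491 for r and 0.00207 for rho, adjusted to 0.0516 and 0.0435). Their r was 0.72 without the 2 tumors farthest from the median of Sox9. The highest r of the 21 pairs was that of Lcn2 and Sox9, 0.83 (rho = 0.81, permutation p = 0.00432 and 0.00752, adjusted to 0.0516 and 0.079), and it was 0.86 without tumors 7 and 8. Lcn2 and Clu had r = 0.77 (rho = 0.67, permutation p = 0.00988 and 0.0387, adjusted to 0.0519 and 0.204), and 0.63 without the same tumors. Lcn2 and Krt20 had r = 0.76 (rho = 0.67, permutation p = 0.0089 and 0.0393, adjusted p = 0.0519 and 0.204), which fell to 0.35 without tumors 7 and 8, on which the relation rests. Lcn2 and Havcr1, both used as urinary injury markers, had r = 0.19 and rho = 0.10 in tumors (permutation p = 0.6 and 0.787, adjusted to 0.84 and 0.928). Without tumors 7 and 8 their r was -0.11.

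Genes most like the members across libraries were sought among 13694 protein-coding genes by Pearson's r of log2 CPM, given as a description without a p. Across the 10 tumors, Sox9 was most like Lamb1, a laminin chain of basement membranes (r = 0.980), and Clu was most like Impa2 (0.978). Others among the closest genes were Pdp1 for Krt20 (0.970), Cd164 for Spp1 (0.913), Pdk3 for Havcr1 (0.898) and Lrrc15 for Vcam1 (0.882). Lrrc15 had a mean of only 0.58 CPM in tumors. The closest of so many genes can reach a high r over 10 libraries by chance.

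Other genes of acute injury and stress were listed with 26 members, of which 23 could be tested. Called higher were 8 (34.8%, against 23.6% of all genes tested), called lower was 1 (4.35%, against 23.8%), and 14 were called in neither direction. The median log2 fold change of the list was 0.47, against -0.0211 over all genes. Among those called higher, Anxa2, a membrane-binding annexin, rose by 2.36 (SE 0.403) and Cdkn1a, which encodes the cell cycle inhibitor p21, rose by 1.94 (SE 0.523). Their adjusted p were 5.96e-05 and 0.00433 by edgeR's quasi-likelihood test. Anxa2 had 683.1 CPM in kidney 7 and 61.6 to 128.2 in the other kidneys, against 626.5 to 1308 in tumors. Igfbp7, the most abundant gene of the list and a urinary marker of cell cycle arrest, fell by 1.18 on the log2 scale (SE 0.22), with an adjusted p of 0.000155 by edgeR.

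Some genes of this list were high in the kidneys numbered 5, 7 and 8, and others were not. Igfbp7 had 1175, 810 and 1210 CPM in them, below the 1297 to 3742 of the other 7. Cdkn1a had 255 and 283 CPM in kidneys 5 and 7, lay between 89.3 in kidney 9 and these values in kidney 8, and had at most 39.4 in the other 6, against 254 to 474 in tumors. Fosl1, a subunit of AP-1, had 51.6, 19.3 and 7.26 CPM in those kidneys and at most 1.66 in the other 7, against 4.47 to 17.7 in tumors, and was not called (log2 fold change 0.00). Gdf15, a stress cytokine, had 236, 168 and 160 CPM in the same 3 and 168 in kidney 9, against at most 16.3 in the other 6, and 49.1 to 132 in tumors (log2 fold change -0.17, not called).

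Genes of failed repair and of scattered tubule cells, a program that injured proximal tubule cells can keep, were listed with 30 members. All 30 were tested, and 12 were called higher (40%, against 23.6% of all genes), 4 lower (13.3%, against 23.8%) and 14 in neither direction, with a median log2 fold change of 0.59. Ptgds, a prostaglandin D synthase, rose by 5.50 (SE 0.591) and Krt19, a simple-epithelium keratin, rose by 4.03 (SE 0.523), with adjusted p of 1.44e-07 and 1.94e-06 by edgeR's quasi-likelihood test. Ptgds had 59.85 CPM in kidney 9 and at most 15.77 in the other kidneys, against 295.7 to 1223 in tumors. Cxcl2, a chemokine for neutrophils, was called higher as well, but it had 247 CPM in tumor 7 and at most 3.46 in the other 9 tumors, against at most 6.58 in kidneys. Krt7 fell by 4.61 (SE 0.878), Cd24a fell by 3.38 (SE 0.349) and Krt18 fell by 2.13 (SE 0.553), with adjusted p of 0.000189, 8.13e-08 and 0.00326 by edgeR. For Krt7, tumor 7 had 48.45 CPM, tumor 9 had 10.38 and the other tumors at most 1.84, against 124.8 to 224.2 in kidneys. Keratins therefore moved in both directions, and Krt8 rose by 0.76 (adjusted p = 0.0466 by edgeR). The most abundant gene of the list was C3, a complement component, which rose by 1.56 (SE 0.486, adjusted p = 0.0116 by edgeR).

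Fibrinogen genes, which injured tubule cells can express, were highest in the kidneys numbered 5, 7 and 8. Fga had 3273, 1103 and 3617 CPM in them, 86.7 to 220 in the other 7 and 30.4 to 648 in tumors. Fgb and Fgg were also highest in these 3 kidneys, so the fibrinogen genes carry much of the sums of the failed repair list there. Ptgds of the same list was lowest in these kidneys, at 3.36, 1.93 and 3.17 CPM. For fibrinogen, none of the 3 was called between the groups, with log2 fold changes of -1.79 for Fga, -1.91 for Fgb and -1.32 for Fgg.

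Among receptors and binding partners of the 7 gene products, 20 were listed and 18 tested, with 7 called higher (38.9%, against 23.6% of all genes), 4 lower (22.2%, against 23.8%) and 7 in neither direction. For osteopontin, Itgb3, an integrin chain that pairs with Itgav, rose by 3.38 (SE 0.38) and Cd44, a hyaluronan receptor that also binds osteopontin, rose by 3.22 (SE 0.374), with adjusted p of 2.74e-07 and 4.44e-07 by edgeR's quasi-likelihood test. Itgb3 had 72.9 to 103 CPM in tumors and 2.09 to 25.1 in kidneys. Itgav itself was not called, at a log2 fold change of 0.18. Itgb5, another integrin chain of the list, was called lower, at -0.388 (SE 0.112, adjusted p = 0.00715 by edgeR). Slc22a17, a receptor for the Lcn2 product, fell by 3.67 (SE 0.44, adjusted p = 6.76e-07 by edgeR). Lrp2, which encodes megalin and takes up that product and other filtered proteins, was the most abundant of the list and not called (log2 fold change 0.56). Of the integrin chains that bind Vcam1, Itgb1 was called higher, at a log2 fold change of 0.91 (adjusted p = 0.00057 by edgeR). Itga4, Itgb7 and Itga9 were not called, at -0.32, -0.73 and 0.08, and Mmp9 and Bgn completed the uncalled genes at 1.65 and -0.17.

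**Figure D4:**
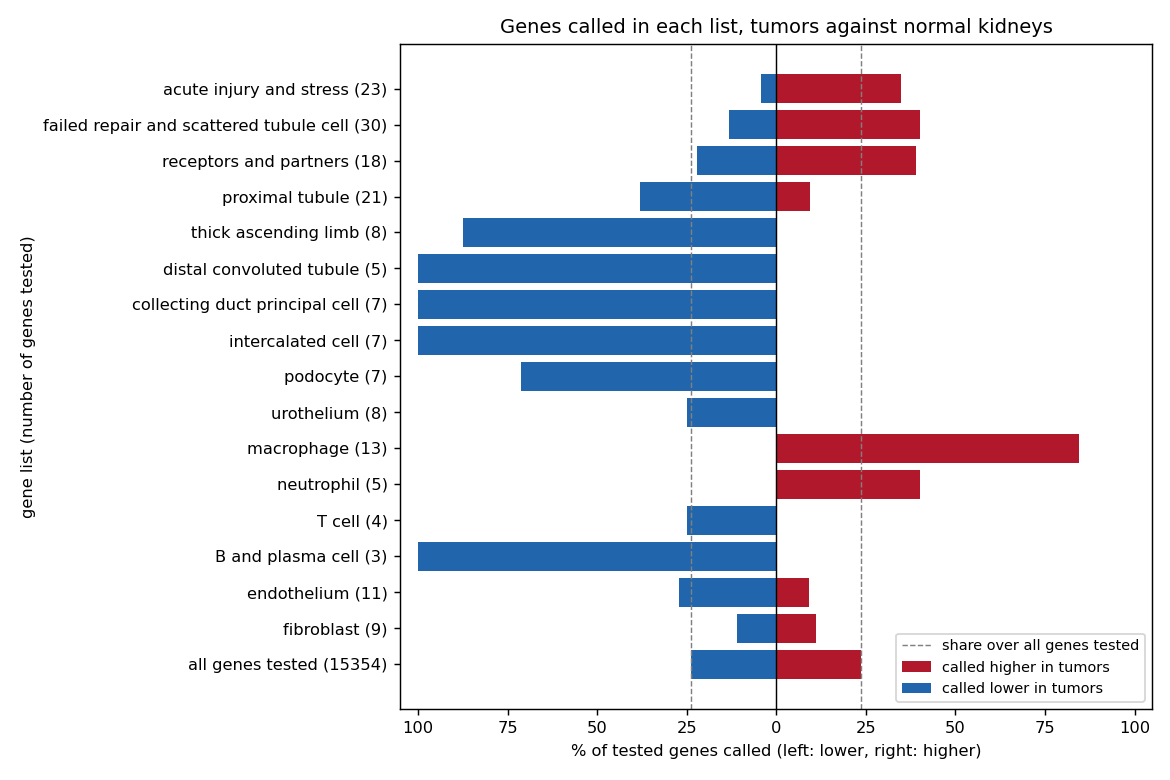
Percent of the tested genes of each list called higher (red, to the right) or lower (blue, to the left) in tumors at an adjusted p under 0.05 by edgeR, with dashed lines for all 15354 genes tested and the number of genes tested in parentheses. The injury lists lie right of the background of 23.6% and the lists of distal tubule cells lie at 87.5% or 100% on the left.

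Cell type markers moved with the same comparison, and their part in the results was not tested. Of 21 proximal tubule markers tested, 2 were called higher (9.52%, against 23.6% of all genes), 8 lower (38.1%, against 23.8%) and 11 in neither direction. The summed CPM of the list was 4192 to 28960 in tumors and 9914 to 34190 in kidneys. The kidneys numbered 5, 7 and 8 had the lowest sums of the 10, at 11500, 9914 and 14870, where the other 7 had 22240 or more. Slc34a1, the phosphate transporter of proximal tubules, had 632, 139 and 309 CPM in these 3 kidneys and 1880 to 3573 in the other 7, against 130 to 1842 in tumors. Gatm, an enzyme of creatine synthesis, had 30.2, 33.6 and 95.8 CPM in them and 371 to 1214 in the others, and rose in tumors by 1.95 (SE 0.589, adjusted p = 0.00954 by edgeR's quasi-likelihood test).

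Markers of the distal nephron segments were lower in tumors. The lists of the distal convoluted tubule, collecting duct principal cells and intercalated cells were lower in all 5, 7 and 7 tested genes, and that of the thick ascending limb in 7 of 8 (87.5%), against 23.8% of all genes. The thick ascending limb sum was 32.3 to 203 CPM in tumors and 3738 to 10110 in kidneys, with Umod, which encodes uromodulin, at a mean of 1.25 ± 1.65 and 4731 ± 1510 CPM (SD, n = 10 each). Cldn10, which was not called, and Ptger3 had means of 92.5 and 26.4 CPM in tumors and made up most of the sum there. Sums were 0.301 to 32.6 in tumors and 217 to 1277 CPM in kidneys for the collecting duct, 1.72 to 11.02 and 156 to 537 for intercalated cells, and 217 to 305 and 587 to 2961 for the distal convoluted tubule. Most abundant in kidneys were Aqp2, Slc26a4 and Slc12a3, while Aqp3, Slc4a1 and Wnk1 had the highest means in tumors. Wnk1, a kinase that is not confined to this segment, had a mean of 231 CPM in tumors and made up most of the distal convoluted tubule sum there. Clu and Lcn2, the injury genes that were lower in tumors, are both known from distal segments as well as from injured cells, and the part of those segments in the result was not tested. In kidneys 5, 7 and 8 the thick ascending limb sum was 4665, 3738 and 7448 CPM, and the collecting duct sum was 333, 217 and 310 CPM, the lowest of the 10 kidneys. Podocyte markers were lower in 5 of 7 (71.4%), and their most abundant gene was Podxl.

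Neutrophil markers are of interest because neutrophils carry the Lcn2 product. Of 13 listed, 5 could be tested, and 2 (40%, against 23.6% of all genes) were called higher, Mmp8 and Csf3r. In tumors their means were 7.33 ± 8.48 and 5.945 ± 10.48 CPM, against 0.591 ± 0.632 and 1.605 ± 0.956 in kidneys (SD, n = 10 each). S100a9, the most abundant, was not called. The summed CPM was 23.9 to 48.6 in the kidneys numbered 5, 7, 8 and 9 and at most 9.48 in the other 6. It was 39.0, 501, 34.0 and 34.7 in tumors 5, 7, 8 and 9 and at most 8.78 in the other 6. These numbers were also the 4 highest for Lcn2 in each group. Whether equal numbers mean the same mouse is not stated. In tumor 7, S100a8 and S100a9 reached 121 and 151 CPM, with 164 CPM of Lcn2, while Lcn2 in kidneys 5, 7 and 8 was at least 1761 CPM beside 7.37 to 10.4 of S100a8 and 7.52 to 9.22 of S100a9. Of the untested markers, Ly6g, Camp, Elane and Mpo had at most 11 counts in any library. Il1r2, Cxcr2, Ngp and Stfa2l1, also untested, reached 905, 393, 259 and 188 counts. The part of neutrophils in the Lcn2 values was not tested.

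**Figure D5:**
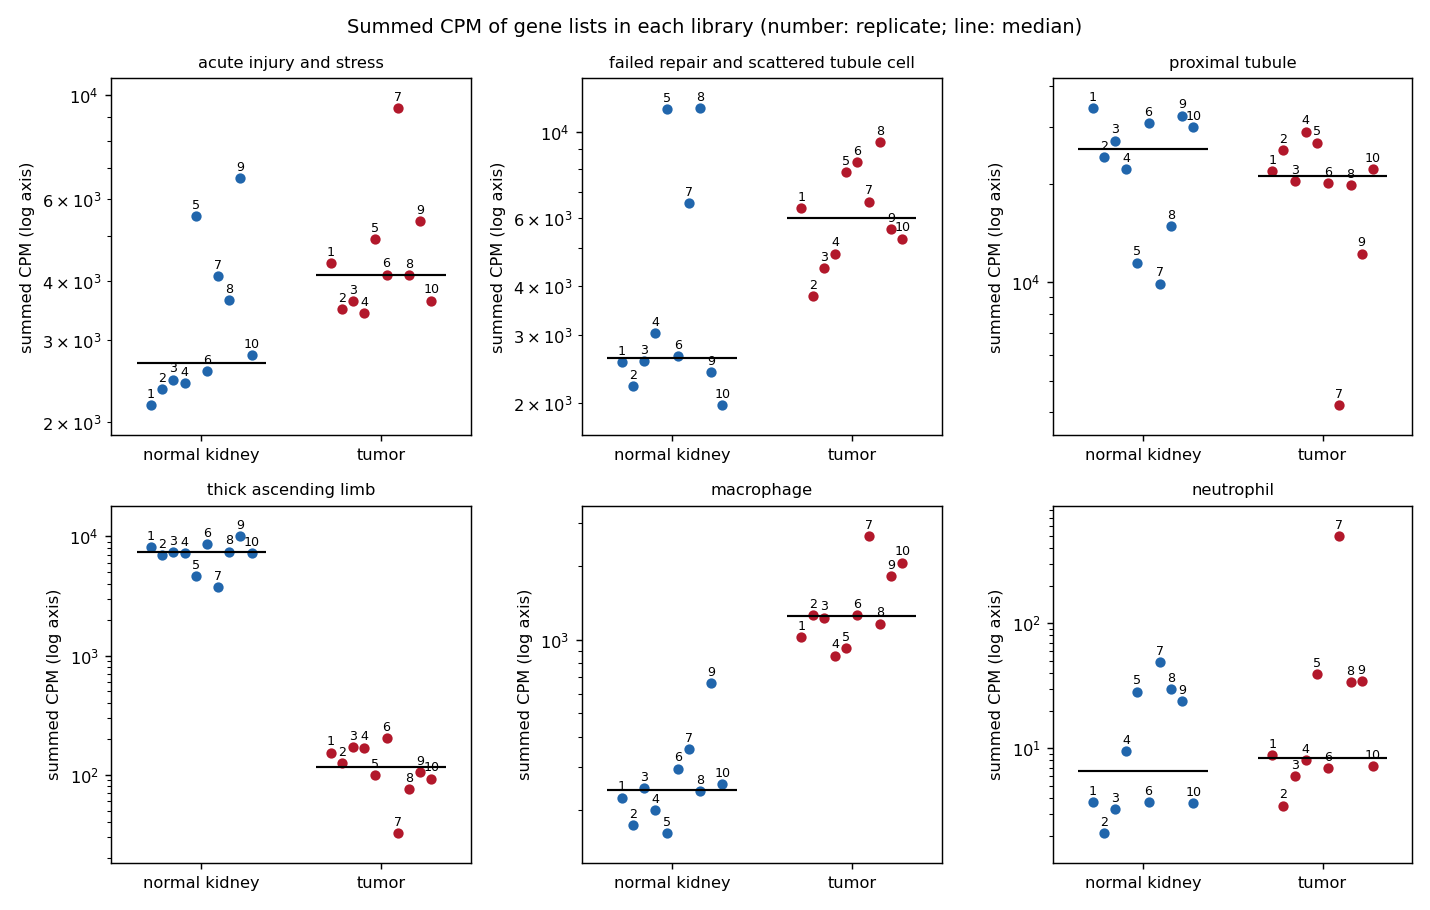
Summed CPM of 6 gene lists in each library on log axes, with kidneys in blue, tumors in red, the replicate number above each point and the median as a black line. In the kidneys numbered 5, 7 and 8 are the lowest proximal tubule sums of the kidneys and the highest sums of the failed repair list, at 11420, 6559 and 11500, and tumor 7 has the highest neutrophil sum, 501.

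The plot of list sums shows where macrophage markers differed. They were called higher in 11 of 13 (84.6%, against 23.6% of all genes), and their sum was 859 to 2663 CPM in tumors and 161 to 661 in kidneys. Gpnmb, the most abundant, rose by 6.86 (SE 0.754, adjusted p = 2.06e-07 by edgeR's quasi-likelihood test), and it is also made by cells with high MiT/TFE activity. Its mean of 648 CPM in tumors, against 5.565 in kidneys, made up much of the tumors' sum. For macrophages the sums of kidneys 5, 7 and 8 were 161, 354 and 238 CPM, from the lowest of the 10 kidneys to below the highest, 661 in kidney 9. B and plasma cell markers were lower in all 3 tested, and T cell markers in 1 of 4 (25%), Cd8a. The most abundant genes of these lists were Jchain and Trac, of which Trac was not called. The sums of both lists were lowest, among kidneys, in those numbered 5, 7 and 8. Endothelial markers were higher in 1 (9.09%), Cdh5, and lower in 3 (27.3%) of 11, Flt1, Tek and Ehd3. Plvap, the most abundant of them, was not called. Fibroblast markers were higher in 1, Postn, and lower in 1, Pdgfra, of 9 (11.1% each), while Col3a1, the most abundant, was not called. Urothelial markers were lower in 2 of 8 (25%), and the most abundant was Psca. The shares lower of T cell, endothelial and urothelial markers are near the 23.8% of all genes. The sums of tumor 7 stood apart in several lists, with 8661 CPM of fibroblast markers, 161 of urothelial markers and 4192 of proximal tubule markers. Without tumor 7 and kidney 9, the counts of injury genes called higher and lower remained 1 and 2 of 7, where 26.5% and 30% of all genes were called, and the log2 fold change of Lcn2 was -6.55.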

How the data were processed

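Poly(A) libraries of 10 tumors and 10 normal kidneys were prepared and sequenced by a company, and the authors deposited the raw read counts per gene without normalization. The build is mm10 by the submitters' processing notes. The aligner, counter and use of strand are not given in the sources used here, so overlapping genes carry uncertain counts.

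Counts were normalized by TMM in edgeR 4.0.16 (R 4.3.3), filtered at a count minimum of 10 and compared by the quasi-likelihood test without a covariate over all 20 libraries, with Benjamini-Hochberg adjustment over all genes and calls at an adjusted p under 0.05. Values are CPM, or log2 CPM with a prior count of 2. Alternatives used DESeq2 1.42.0, limma 3.58.1, other scalings, no filter, a block by number and each library left out. Permutation tests with SciPy 1.17.1 used 100000 resamples (seed 20240). Correlations over 7 kidneys were also run but are not reported, since those kidneys had been chosen by their Lcn2 values. The adjustment therefore covers the 21 pairs within tumors and not the planned 42 relations, which changed no call in tumors on the scale used in the text.

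The members and lists were chosen with earlier results of these data known. Genes named are the 7, for the lists genes among the largest rises and falls called, most abundant genes and uncalled partners, and genes among those most like the 7. Fosl1, Gdf15, Wnk1, Fgb, Fgg, Fga, Slc34a1, S100a8 and Krt8 were added after their values were seen. The 20 samples are described as 10 mice with tumor and normal tissue each, so the 2 groups are not independent. The test without a covariate treats them as independent, since the labels do not tie a number to a mouse. Where equal numbers were matched by a block, Havcr1, Krt20 and Sox9 were called as well. No pair of libraries within a group agreed within sampling noise (chi-square divided by degrees of freedom at least 12.8 in 90 pairs).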

Additional observations from a re-analysis of the deposited data

Results flagged for a closer look

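For each group of 10 libraries, the gap between the most extreme library and its nearest neighbor was divided by the range, for the log2 CPM of the 7 genes and for the log2 summed CPM of 16 lists, and compared with Dixon's 95% critical value. Chance passes it in about 1 of 20 such groups, and 8 of 46 passed. None of the 7 injury genes passed it in either group. The ratio takes the gap of 1 extreme library, so it can miss libraries that stand apart together. For Lcn2, kidneys 7, 5 and 8 had 11.69, 11.31 and 10.78 log2 CPM and kidney 9 followed with 7.86.

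Tumor 7 was far from the other tumors in 4 lists. It was highest in the acute injury and stress list (ratio 0.555, 9390 CPM), the neutrophil list (0.555, 501 CPM) and the fibroblast list (0.631, 8661 CPM), and lowest in the proximal tubule list (0.556, 4192 CPM). It also held the highest Lcn2, Krt20 and Clu of the tumors.

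Kidney 9 was lowest of the kidneys for podocyte markers (0.762, 131 CPM) and for endothelial markers (0.511, 629 CPM). Kidney 7 was highest for fibroblast markers (0.629, 1720 CPM) and urothelial markers (0.474, 81.4 CPM).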

How the results depend on the processing

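Calls and directions of Clu, Lcn2 and Vcam1 held under all alternatives run, with log2 fold changes between -4.34 and -3.20, -6.55 and -3.86, and 1.82 and 2.08 over all of them. No alternative reversed any of the 7 genes.

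Havcr1, Krt20 and Sox9 were not called by edgeR over all 20 libraries without a block. They were called higher by limma-voom (2.98, 3.50 and 1.80). With Spp1, they were also called by limma-voom with quality weights (4.32, 4.84, 2.61 and 2.28). That made 4 and 5 genes higher in place of 1. The numbers 1 to 10 are not stated to pair tumors with kidneys. Same-numbered libraries deviated together with r from -0.143 to 0.377, over 0.1 in 9 of 10 pairs, and 8 of 10 tumors correlated best with the kidney of their own number. With a replicate block, Havcr1 (3.03), Krt20 (3.73) and Sox9 (1.91) were called and the count of higher genes was 4. It gave 3979 calls higher and 3886 lower over all genes. Leaving out each library in turn, the log2 fold change of Havcr1 ran from 0.60 to 2.71, with its call made only without kidney 7, and the count of higher genes was 1 or 2. The cause of these differences was not tested.

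With library totals, 1 kidney lay within and 2 above the tumors' range of Spp1, in place of 2 and 1, and 1 kidney lay within that of Clu, in place of 0. For Lcn2 the kidneys within and above were 7 and 3, in place of 6 and 4. On log2 CPM from library totals, 2 pairs of genes correlated within tumors by r with adjustment over 42 relations, and 4 with adjustment over the 21 pairs of tumors, in place of 0. The test against a log2 fold change of 1 kept the 3 calls. Without the filter 32383 genes were tested, of which 4146 were called higher and 4929 lower. With 1 library left out at a time, the ranges were -6.42 to -4.39 for Lcn2, 0.58 to 2.33 for Krt20, 0.57 to 1.29 for Sox9, 0.16 to 0.86 for Spp1, -4.20 to -3.20 for Clu and 1.85 to 1.99 for Vcam1, and the count of lower genes was 2 throughout.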

Other observations

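Proximal tubule markers differed among themselves. Slc4a4, a bicarbonate transporter, rose in tumors by 1.64 (SE 0.277, adjusted p = 5.34e-05 by edgeR's quasi-likelihood test), while Slc22a8, an organic anion transporter, fell by 3.74 (SE 0.531, adjusted p = 6.24e-06) and Slc5a2, a glucose transporter, fell by 3.54 (SE 0.559, adjusted p = 2.29e-05).

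Kidney 9 stood apart from the other kidneys in its library, with a TMM factor of 0.749 against 1.03 to 1.14 and 19996 genes with a count against 22021 or more. It had 232 CPM of Lcn2, 168 of Gdf15 and 89.3 of Cdkn1a, but 4.51 of Krt20, 305 of Clu and 171 of Fga CPM. Its Igfbp7, at 3742 CPM, was the highest of all 20 libraries. Lrp2 in kidney 9 was 518 CPM, but its proximal tubule sum, 32450 CPM, was among the highest of the kidneys.

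The library labels leave the state of the normal kidneys unstated. The 95% interval of the log2 fold change ran from -0.93 to 2.45 for Havcr1 and from -0.76 to 1.52 for Spp1. Absence of a call for these genes does not show equal levels. Differences in tissue composition cannot be told apart from changes within cells.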
